A study of Homo sapiens with 6 samples.

Results

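Wnt ligands, their receptors and the genes that feed back on Wnt signalling were followed in A549 cells, a human lung adenocarcinoma line, after siRNA against RPS19, a gene for a protein of the small ribosomal subunit. The set holds 48 of the 63152 genes counted: 19 WNT genes, 10 FZD genes, DKK1 to DKK4 and 15 named genes (LRP5, LRP6, ROR1, LGR4, LGR5, RNF43, ZNRF3, AXIN1, AXIN2, CTNNB1, NKD1, SFRP1, TCF7, TCF7L2 and LEF1), chosen by gene symbol on chromosomes 1 to 22 and X. A second FZD9 entry, on a patch sequence, was left out. The siRPS19 group was reverse transfected with an siGENOME pool against RPS19 and the siOTP group with an ON-TARGETplus non-targeting control, each at 10 nM with DharmaFECT1, so the reagent line differed along with the target. Medium was changed at 24 hours and RNA taken at 72 hours from 3 biological replicates per group. The comparison asks how the mRNA of these genes differs after siRNA against RPS19. No protein, secreted ligand or pathway activity was measured.

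Wnt ligands are secreted, lipid-modified glycoproteins. They bind Frizzled receptors together with LRP5 or LRP6, which stops the destruction complex built on AXIN from marking beta-catenin (CTNNB1) for breakdown, so that beta-catenin can act with TCF/LEF factors in the nucleus. Several targets of that step, among them AXIN2, NKD1, RNF43 and ZNRF3, damp the pathway in turn, and DKK and SFRP proteins block it outside the cell. In the lung, Wnt signals are known for their part in the budding of airways and in the upkeep of alveolar cells.

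Counts assigned to genes came to between 20814110 and 23889372 per library. RPS19 had 1159, 830 and 1073 counts in the siRPS19 libraries, against 30731, 27124 and 30387 in the siOTP libraries (log2 fold change -5.14 ± 0.09 SE, adjusted p = 4.98e-12). All 8 epithelial and A549 markers were detected, with a summed level of 9591 to 10470 CPM in siRPS19 and 15540 to 16520 CPM in siOTP. Of these, 2 rose and 6 fell. The 8 markers of blood, endothelial and fibroblast cells summed to 0.520 to 0.704 CPM in siRPS19 and 2.33 to 3.09 CPM in siOTP, mostly from COL3A1, and CD3E and PECAM1 had no count in any library. The PECAM1 entry lies on a patch sequence, so its lack of counts does not bear on endothelial cells. Reads outside genes made up 5.13% to 6.36% of entries in siRPS19 and 3.39% to 3.85% in siOTP. The part of these differences in the results below was not tested.

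Of the 48 members, 32 passed the filter on low counts and were tested in a fit over 17171 genes. After RPS19 siRNA, 16 rose and 13 fell (edgeR's quasi-likelihood test, adjusted over all genes, threshold 0.05), and in 29 of the 32 the siRPS19 and siOTP libraries did not overlap. That is 90.6% of the tested members past the test, against 78.3% of all genes tested. All genes gave 39.5% higher and 38.9% lower, and the groups did not overlap for 79.7% of them. At least 2-fold rises were 6 of 32 members (18.8%, against 18.5% of all genes) and at least 2-fold falls 4 of 32 (12.5%, against 12.4%), both close to the share of all genes. Scaled by library totals, 7 rises (21.9%, against 24.7%) and 2 falls (6.25%, against 7.86%) were at least 2-fold, WNT7B and FZD9 no longer among the falls, and upper-quartile factors also left 2 falls. The median log2 fold change was 0.25 for the tested members and 0.02 for all genes. The filter favours a difference in members that passed it only through a group where they are high, as WNT4 and NKD1 did. These counts therefore describe the tested members and not all 48. The 29 members past the test are the 29 without overlap. Differences between their libraries of the same date in the labels therefore had to take the direction of the call, and add no support. Values below are CPM (read counts per library size scaled with TMM factors) in replicates 1, 2 and 3 of each group. Levels of different genes are compared per length, as TMM-normalised RPKM with the authors' transcript lengths. When libraries were scaled by their totals instead, the median log2 fold change of all genes moved up by 0.29, so directions are relative to the TMM scale. These are bulk libraries, and fewer cells with an mRNA cannot be told apart from less of it per cell.

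**Figure D1:**
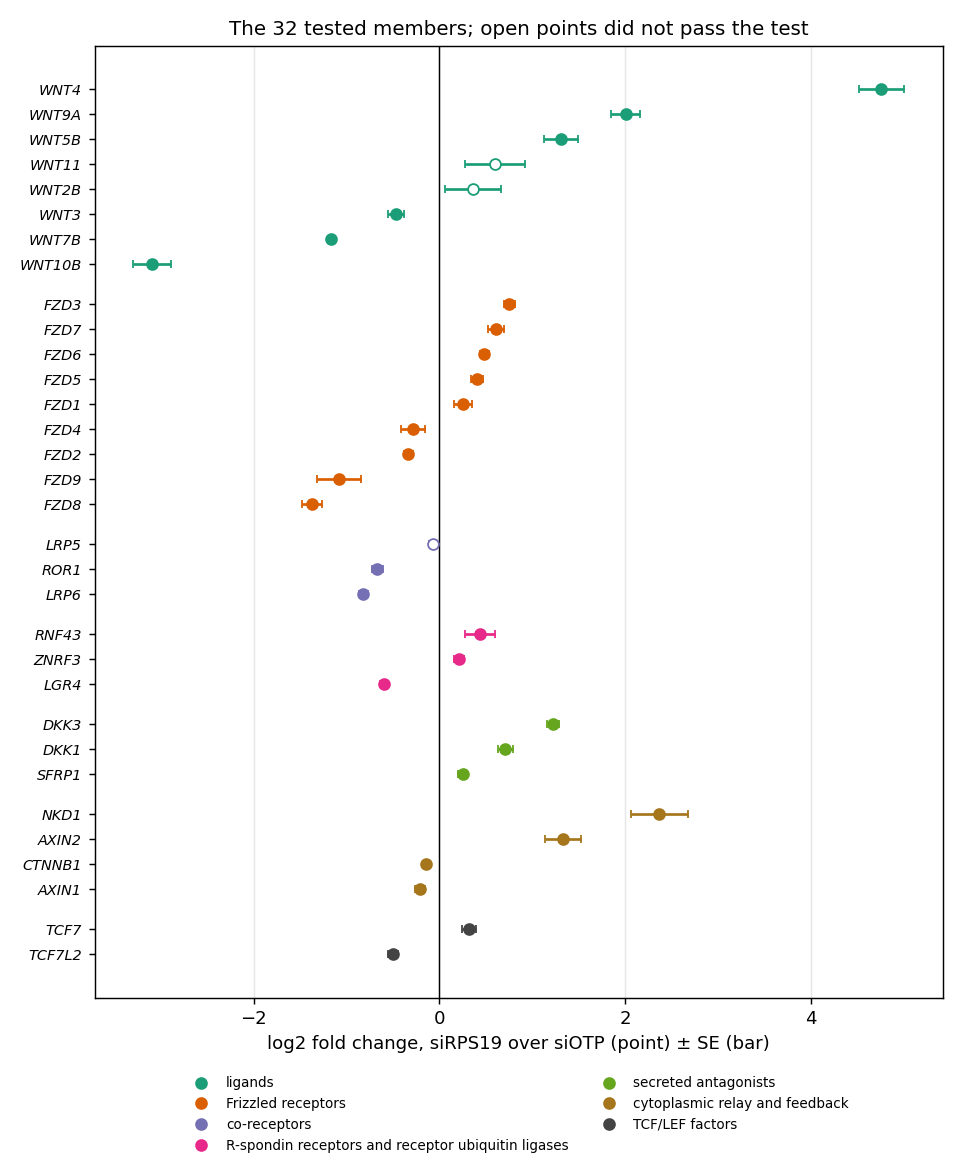
Log2 fold change of siRPS19 over siOTP for the 32 tested members, grouped by role (points, with bars for the standard error, 3 libraries per group). The points run from WNT10B at -3.09 to WNT4 at 4.76, and the 3 open points, WNT11, WNT2B and LRP5, did not pass the test.

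Among the ligands, the abundant WNT7B and the less abundant WNT10B and WNT3 fell, while WNT4, WNT9A and WNT5B rose. WNT7B (ENSG00000188064, hg19 chromosome 22, 46316242 to 46373009, minus strand), a ligand known from lung development, had 143, 153 and 152 CPM in the siRPS19 libraries, against 337, 322 and 344 CPM in the siOTP libraries. Every siRPS19 library lay below every siOTP library, and the fall was 2.24-fold (log2 fold change -1.16 ± 0.04 SE, adjusted p = 4.54e-16). In the authors' deposited table WNT7B stood at 32.42 RPKM in siRPS19 and 59.70 RPKM in siOTP, each 1 value per group and not TMM-scaled. WNT10B (ENSG00000169884, hg19 chromosome 12, 49359123 to 49365546, minus strand), a ligand known for beta-catenin signalling, had 0.769, 0.434 and 0.786 CPM in the siRPS19 libraries, against 6.62, 5.27 and 5.31 CPM in the siOTP libraries. It fell 8.53-fold, the largest fall among the 32 tested members (log2 fold change -3.09 ± 0.21 SE, adjusted p = 2e-11). WNT3, also known as a beta-catenin ligand, had 12.7, 12.1 and 11.1 CPM in the siRPS19 libraries, against 17.3, 17.7 and 14.7 CPM in the siOTP libraries. The groups did not overlap (log2 fold change -0.47 ± 0.09 SE, adjusted p = 7.02e-05), and with library totals the call was lost (log2 fold change -0.18, adjusted p = 0.0601).

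WNT4 (ENSG00000162552, hg19 chromosome 1, 22443798 to 22470462, minus strand), a ligand known from kidney and reproductive tract development, showed the largest rise among the 32 tested members. It had 185, 177 and 177 counts in the siRPS19 libraries, against 2, 9 and 5 in the siOTP libraries, which is 7.12, 7.68 and 7.33 CPM in siRPS19, against 0.0959, 0.456 and 0.258 CPM in siOTP. The rise was 27.1-fold (log2 fold change 4.76 ± 0.24 SE, adjusted p = 2.4e-13), with few counts behind the siOTP level. WNT4 passed the filter on low counts only through the siRPS19 libraries, where it is high, so its p-value is not separate support. WNT9A (ENSG00000143816, hg19 chromosome 1, 228106357 to 228135599, minus strand), known from joint and skeletal development, had 5.54, 6.38 and 6.62 CPM in the siRPS19 libraries, against 1.53, 1.37 and 1.70 CPM in the siOTP libraries. That is a 4.01-fold rise (log2 fold change 2.00 ± 0.16 SE, adjusted p = 3.46e-10). WNT5B, a ligand usually placed outside the beta-catenin branch, had 4.96, 6.25 and 3.97 CPM in the siRPS19 libraries, against 2.25, 1.93 and 1.91 CPM in the siOTP libraries (log2 fold change 1.31 ± 0.18 SE, adjusted p = 1.43e-06). For WNT4, WNT9A and WNT5B alike, every siRPS19 library was above every siOTP library. WNT11 and WNT2B did not pass. WNT11 had 33, 24 and 19 counts in siRPS19, against 22, 11 and 8 in siOTP, with overlapping groups (log2 fold change 0.60 ± 0.32 SE, adjusted p = 0.0938). Without siOTP replicate 1 it passed, at a log2 fold change of 1.07 (adjusted p = 0.013). It also passed with library totals (log2 fold change 0.88, adjusted p = 0.0136) and with upper-quartile factors (0.77, adjusted p = 0.0316). WNT2B had 24, 16 and 15 counts in siRPS19, against 11, 13 and 11 in siOTP, with overlapping groups in CPM (log2 fold change 0.36 ± 0.30 SE, adjusted p = 0.278).

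The remaining 11 WNT genes were not tested. WNT2 and WNT8A had no count in any library, which allows up to 0.0451 CPM over the siRPS19 group and 0.0452 CPM over the siOTP group (3 counts over a group's libraries, counting error only). The other 9 had few counts. WNT5A summed to 28 counts over the siRPS19 libraries and 18 over the siOTP libraries, with 8, 9 and 11 counts in siRPS19, against 1, 4 and 13 in siOTP. WNT9B summed to 17 counts in siRPS19 and 17 in siOTP, WNT8B to 15 in siRPS19 and 7 in siOTP, and WNT7A to 10 in siRPS19 and 8 in siOTP. WNT6 summed to 4 counts in siRPS19 and 9 in siOTP, WNT10A to 4 in siRPS19 and 2 in siOTP, and WNT1 to 3 in siRPS19 and 1 in siOTP. WNT3A and WNT16 each had 0 counts in siRPS19 and 2 in siOTP, so none of the 11 could be compared.

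Per length, WNT7B stayed the leading ligand mRNA in every library while the mix around it differed. The summed level of the 19 ligand genes was 36.7, 38.9 and 37.8 RPKM in the siRPS19 libraries, against 75.0, 71.4 and 75.1 RPKM in the siOTP libraries. WNT7B held 78.1% ± 1.18 in siRPS19 and 89.6% ± 0.843 in siOTP of that sum (each ± is an SD over 3 libraries). WNT3 came next, at 7.32% ± 0.639 in siRPS19 and 5.19% ± 0.615 in siOTP, and WNT10B held 0.671% ± 0.214 in siRPS19 and 2.95% ± 0.357 in siOTP. WNT4 accounted for 4.31% ± 0.0425 in siRPS19 and 0.0817% ± 0.0566 in siOTP of the summed ligand RPKM, WNT9A for 4.08% ± 0.303 in siRPS19 and 0.519% ± 0.0444 in siOTP and WNT5B for 3.10% ± 0.643 in siRPS19 and 0.638% ± 0.0551 in siOTP. By mean RPKM the order in siRPS19 was WNT7B (29.5), WNT3 (2.76), WNT4 (1.63), WNT9A (1.54) and WNT5B (1.18), and the libraries of WNT4 and WNT9A overlapped there. In siOTP it was WNT7B (66.2), WNT3 (3.82), WNT10B (2.18), WNT5B (0.471) and WNT9A (0.383).

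**Figure D2:**
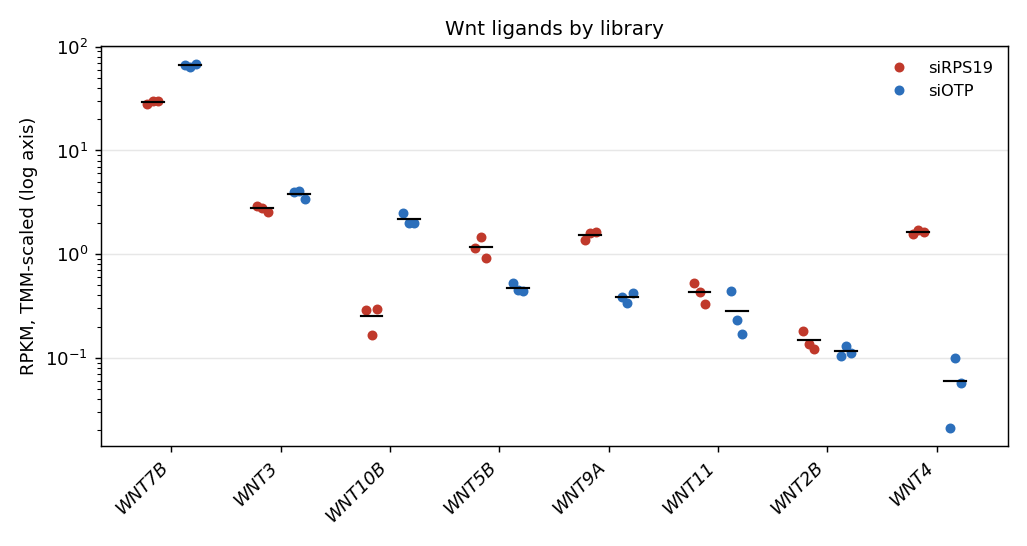
Level of the 8 tested WNT ligands in each library (TMM-scaled RPKM, log axis). Points are the 3 siRPS19 libraries on the left of each gene and the 3 siOTP libraries on its right, and lines are group means. WNT7B is the highest in both groups, and WNT4 stands at 1.63 RPKM in siRPS19 against 0.0596 in siOTP.

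In 3 of 4 pairs of WNT genes that neighbour each other, 1 gene was tested and the other had too few counts. By their annotated bounds, WNT3 and WNT9B lie 46 bases apart on opposite strands of chromosome 17 (hg19), with adjacent starts and transcription running away from each other. WNT3 fell, while WNT9B had 17 counts in each group. WNT10B and WNT1 lie 6.9 kb apart on chromosome 12, on opposite strands, and WNT1 had 3 counts over the siRPS19 libraries and 1 over the siOTP libraries. WNT9A and WNT3A lie 59.2 kb apart on chromosome 1, and WNT3A had 0 counts in siRPS19 and 2 in siOTP. WNT6 and WNT10A, 6.1 kb apart on the plus strand of chromosome 2, were both too low to test.

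Promoter windows are printed for the 3 ligands that rose and, for comparison, for DKK1 and FZD8, which rose and fell from higher levels. WNT7B, WNT10B, AXIN2 and NKD1 have no window in the table used. The windows come from RefSeq (GRCh38.p14, 250 bases before to 50 after a gene's start, written 5′ to 3′ on the gene's strand), which held 38 windows for 31 of the 48 members. Capitals mark CAAAG, the end of the TCF/LEF core ATCAAAG, or the reverse complement CTTTG, so that a match of the longer motif is also one of the shorter.
WNT4 promoter window (chr1:22143048-22143347, minus strand): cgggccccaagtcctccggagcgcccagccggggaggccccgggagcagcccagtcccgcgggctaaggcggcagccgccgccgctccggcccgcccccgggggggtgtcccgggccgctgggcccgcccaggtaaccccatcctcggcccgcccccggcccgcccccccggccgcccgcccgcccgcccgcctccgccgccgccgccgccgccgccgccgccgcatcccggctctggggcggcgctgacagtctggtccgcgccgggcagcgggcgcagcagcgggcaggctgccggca
WNT9A promoter window (chr1:227947883-227948182, minus strand): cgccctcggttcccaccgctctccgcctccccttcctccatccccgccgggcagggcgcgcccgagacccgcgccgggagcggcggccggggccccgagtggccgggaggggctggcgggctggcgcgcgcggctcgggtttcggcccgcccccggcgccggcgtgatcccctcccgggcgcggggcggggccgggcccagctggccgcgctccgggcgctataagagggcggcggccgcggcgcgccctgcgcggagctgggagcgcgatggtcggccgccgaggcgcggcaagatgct
WNT5B promoter window (chr12:1628981-1629280, plus strand): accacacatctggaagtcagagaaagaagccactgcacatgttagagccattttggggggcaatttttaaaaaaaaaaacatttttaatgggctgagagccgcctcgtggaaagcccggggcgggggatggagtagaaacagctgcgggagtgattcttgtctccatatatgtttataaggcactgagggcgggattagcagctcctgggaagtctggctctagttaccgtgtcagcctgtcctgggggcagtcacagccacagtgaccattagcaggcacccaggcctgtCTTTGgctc
DKK1 promoter window (chr10:52314031-52314330, plus strand): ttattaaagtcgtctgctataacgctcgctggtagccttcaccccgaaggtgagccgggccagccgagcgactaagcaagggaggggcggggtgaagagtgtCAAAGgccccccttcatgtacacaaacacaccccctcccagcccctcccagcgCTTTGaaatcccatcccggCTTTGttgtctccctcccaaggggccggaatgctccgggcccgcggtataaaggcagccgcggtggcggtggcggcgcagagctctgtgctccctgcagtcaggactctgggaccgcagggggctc
FZD8 promoter window (chr10:35642247-35642546, minus strand): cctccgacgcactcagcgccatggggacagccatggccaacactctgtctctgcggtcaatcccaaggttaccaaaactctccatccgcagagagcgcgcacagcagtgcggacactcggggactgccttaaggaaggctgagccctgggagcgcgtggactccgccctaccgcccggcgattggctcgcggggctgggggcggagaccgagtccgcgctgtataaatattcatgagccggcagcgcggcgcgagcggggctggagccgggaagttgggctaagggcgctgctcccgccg

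The longer motif ATCAAAG, searched on both strands, was in none of the 38 member windows and in 2.62% of the 35116 windows of all genes. The shorter CAAAG was in 11 of the 38 and in 47.5% of all windows. By gene, it was found for 5 of 8 members that rose, 2 of 9 that fell, 0 of 2 that did not pass and 2 of 12 untested ones. The DKK1 window holds it at -148, -95 and -76 and the printed WNT5B window at 42, while the other WNT5B window (chr12:1616806-1617105, plus strand) holds none. Positions are given as the first printed base of the match, counted from the start site. The WNT4 and WNT9A windows, at 85.7% and 83.0% G and C, hold no match, nor does that of FZD8 at 67.0%. The median share of G and C was 65.7% over the 25 windows of tested members and 58.7% over all windows. A match is a description of these letters only.

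The Frizzled genes, which encode the membrane receptors of Wnt ligands, split into 5 that rose and 4 that fell among the 9 tested. These are 55.6% and 44.4%, against 39.5% and 38.9% of all genes. The falls of FZD8 and FZD9 were at least 2-fold. FZD8 (ENSG00000177283, hg19 chromosome 10, 35927177 to 35930362, minus strand) had 11.1, 12.8 and 14.8 CPM in the siRPS19 libraries, against 29.3, 33.8 and 37.1 CPM in the siOTP libraries. It fell 2.59-fold with groups far apart (log2 fold change -1.37 ± 0.11 SE, adjusted p = 6.37e-08). FZD9, a Frizzled gene best known from brain and bone, had 0.808, 1.13 and 1.32 CPM in the siRPS19 libraries, against 2.93, 1.87 and 2.06 CPM in the siOTP libraries, at 79 counts over the siRPS19 libraries and 138 over the siOTP libraries (log2 fold change -1.08 ± 0.24 SE, adjusted p = 0.000321). Without replicate 1 of both groups its log2 fold change was -0.67 (adjusted p = 0.0304). FZD2, the Frizzled gene with the highest level per length, had 71.7, 77.2 and 68.8 CPM in the siRPS19 libraries, against 92.5, 86.8 and 95.2 CPM in the siOTP libraries (log2 fold change -0.34 ± 0.05 SE, adjusted p = 3.16e-06). With library totals the FZD2 call was lost (log2 fold change -0.05, adjusted p = 0.375). FZD4, known as the receptor of norrin, had 4.58, 3.90 and 4.39 CPM in the siRPS19 libraries, against 5.37, 5.32 and 5.00 CPM in the siOTP libraries and passed narrowly (log2 fold change -0.28 ± 0.13 SE, adjusted p = 0.0497). The FZD4 call was lost with the replicate block (adjusted p = 0.0558), with library totals (log2 fold change 0.001, adjusted p = 0.993) and in 8 of the 9 fits that left out a library or a pair.

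On the TMM scale the rises were smaller than the falls of FZD8 and FZD9. All but that of FZD1 were larger than the falls of FZD2 and FZD4. FZD3, known from axon guidance and planar polarity, had 42.8, 47.8 and 43.8 CPM in the siRPS19 libraries, against 26.0, 25.8 and 27.9 CPM in the siOTP libraries (log2 fold change 0.75 ± 0.06 SE, adjusted p = 2.68e-10). FZD7, often raised in epithelial tumours, had 25.8, 25.8 and 29.6 CPM in the siRPS19 libraries, against 15.1, 18.8 and 19.4 CPM in the siOTP libraries (log2 fold change 0.61 ± 0.09 SE, adjusted p = 5.5e-06). FZD6, a receptor of planar polarity, had 78.5, 82.9 and 74.7 CPM in the siRPS19 libraries, against 58.2, 56.0 and 54.7 CPM in the siOTP libraries (log2 fold change 0.48 ± 0.05 SE, adjusted p = 1.39e-08). In these 3 genes every siRPS19 library was above every siOTP library. FZD5, a receptor known from gut and eye, had 29.5, 28.9 and 30.2 CPM in the siRPS19 libraries, against 20.5, 22.1 and 24.2 CPM in the siOTP libraries (log2 fold change 0.41 ± 0.07 SE, adjusted p = 1.06e-05). FZD1, a close relative of FZD2 and FZD7, had 9.08, 10.4 and 10.1 CPM in the siRPS19 libraries, against 8.15, 7.90 and 8.77 CPM in the siOTP libraries (log2 fold change 0.25 ± 0.10 SE, adjusted p = 0.0246). FZD1 was past the threshold by little and lost the call in 6 of the 9 fits without a library or a pair, with log2 fold changes of 0.17 to 0.28 in those 6 fits. FZD10 had no count in any library. Per length, the Frizzled genes summed to 76.2, 81.2 and 76.5 RPKM in siRPS19, against 82.9, 81.6 and 87.4 RPKM in siOTP. FZD2 made up 46.9% ± 1.38 in siRPS19 and 55.0% ± 1.31 in siOTP of that sum, and FZD6 24.8% ± 0.718 in siRPS19 and 16.5% ± 0.989 in siOTP. FZD8 held 5.20% ± 0.768 in siRPS19 and 12.5% ± 1.21 in siOTP, and ranked below FZD2 and FZD6 alone in siOTP. FZD7 held 9.02% ± 0.922 in siRPS19 and 5.50% ± 0.671 in siOTP, and took that rank in siRPS19.

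**Figure D3:**
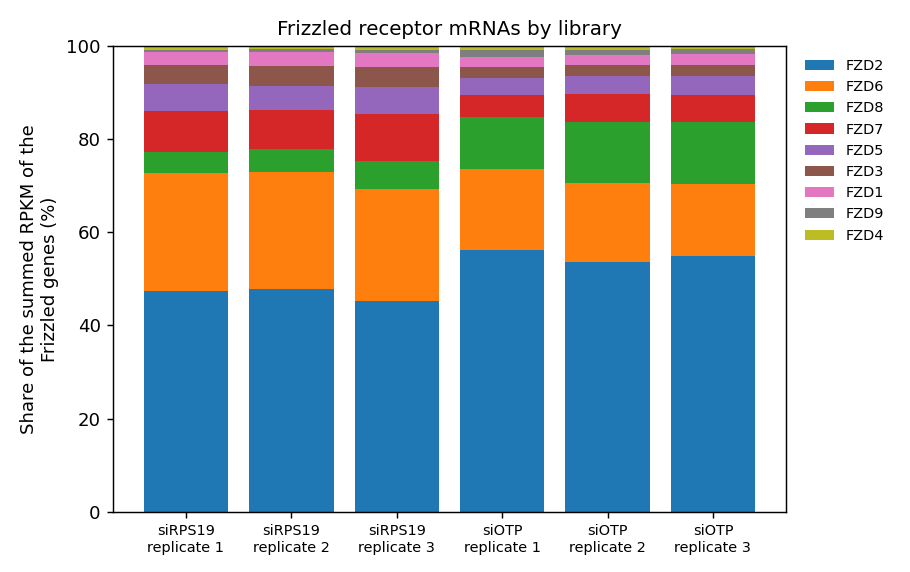
Share of each Frizzled gene in the summed TMM-scaled RPKM of the Frizzled genes, in percent, 1 bar per library (3 siRPS19 on the left, 3 siOTP on the right). FZD8 takes 4.58% to 6.06% of the siRPS19 bars and 11.1% to 13.3% of the siOTP bars, and FZD6 takes 24.0% to 25.3% of the siRPS19 bars and 15.4% to 17.3% of the siOTP bars.

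Of the co-receptors, LRP6 and ROR1 fell and LRP5 did not pass. LRP6 (ENSG00000070018, hg19 chromosome 12, 12268959 to 12419946, minus strand) had 86.9, 85.5 and 92.5 CPM in the siRPS19 libraries, against 156, 148 and 163 CPM in the siOTP libraries. The fall was 1.76-fold and the groups did not overlap (log2 fold change -0.82 ± 0.04 SE, adjusted p = 7.73e-13). LRP5, its close relative, had 116, 128 and 125 CPM in the siRPS19 libraries, against 127, 126 and 134 CPM in the siOTP libraries, with overlapping groups (log2 fold change -0.07 ± 0.04 SE, adjusted p = 0.143). The sign for LRP5 turned with library totals (log2 fold change 0.22, adjusted p = 0.000268) and with upper-quartile factors (0.10, adjusted p = 0.0338). Within a library, where scaling plays no part, the ratio of LRP6 to LRP5 per length was 0.448, 0.399 and 0.440 in siRPS19, against 0.732, 0.699 and 0.727 in siOTP. The mean log2 ratio was -1.22 ± 0.089 in siRPS19 and -0.48 ± 0.036 in siOTP (SD over 3 libraries), a difference of -0.75 with exact two-sided permutation p = 0.1, the smallest that 3 libraries against 3 allow. ROR1, a receptor kinase that binds WNT5A, had 33.6, 34.0 and 29.4 CPM in the siRPS19 libraries, against 51.1, 53.7 and 49.4 CPM in the siOTP libraries (log2 fold change -0.67 ± 0.06 SE, adjusted p = 1.93e-09). LRP6 and ROR1 both overlap annotated genes on the other strand, and whether the counts keep the strands apart was not stated.

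LGR4, the receptor of R-spondins, fell, and both membrane ubiquitin ligases that clear Frizzled receptors passed upward. LGR4 had 153, 166 and 162 CPM in the siRPS19 libraries, against 239, 242 and 249 CPM in the siOTP libraries, a 1.52-fold fall (log2 fold change -0.60 ± 0.04 SE, adjusted p = 1.76e-11). LGR5, a marker of intestinal stem cells, had 3 counts in 1 siRPS19 library and none in the others. ZNRF3 had 39.8, 42.1 and 43.2 CPM in the siRPS19 libraries, against 35.1, 36.4 and 37.0 CPM in the siOTP libraries, with all siRPS19 libraries above all siOTP libraries (log2 fold change 0.21 ± 0.05 SE, adjusted p = 0.00161). RNF43 had 6.42, 6.38 and 7.04 CPM in the siRPS19 libraries, against 3.36, 5.37 and 6.03 CPM in the siOTP libraries (log2 fold change 0.43 ± 0.16 SE, adjusted p = 0.0209). The RNF43 call rests on siOTP replicate 1, the lowest library, without which the log2 fold change was 0.20 (adjusted p = 0.202), and it was lost without siRPS19 replicate 3 (adjusted p = 0.0551) and without replicate 1 of both groups (0.25, adjusted p = 0.14). The per-length ratio of ZNRF3 to RNF43 was 6.67, 7.12 and 6.61 in siRPS19, against 11.2, 7.31 and 6.60 in siOTP, with overlapping groups and a log2 difference of -0.26 (exact two-sided permutation p = 0.4). Without siOTP replicate 1 that difference was -0.03.

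All 3 tested secreted antagonists among the members rose, as did 39.5% of all genes. DKK1 (ENSG00000107984, hg19 chromosome 10, 54074056 to 54077802, plus strand), which binds LRP5 and LRP6, was the most abundant member per length, with 241 ± 19.6 RPKM in siRPS19, against 147 ± 14.9 RPKM in siOTP (SD of 3 libraries). It had 500.3, 513 and 581 CPM in the siRPS19 libraries, against 292, 325 and 358 CPM in the siOTP libraries, and every siRPS19 library was above every siOTP library (log2 fold change 0.71 ± 0.08 SE, adjusted p = 9.14e-05). DKK3, a divergent relative of DKK1, had 67.7, 64.7 and 59.1 CPM in the siRPS19 libraries, against 27.4, 29.3 and 25.4 CPM in the siOTP libraries, a 2.33-fold rise (log2 fold change 1.22 ± 0.06 SE, adjusted p = 2.15e-13). SFRP1, a soluble Frizzled-like protein, had 112, 117 and 123 CPM in the siRPS19 libraries, against 98.0, 95.1 and 103 CPM in the siOTP libraries (log2 fold change 0.25 ± 0.04 SE, adjusted p = 3.66e-05). In the authors' deposited table DKK1 stood at 264.5 RPKM in siRPS19 and 132.6 RPKM in siOTP, each 1 value per group and not TMM-scaled. DKK2 and DKK4 had no count in any library.

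The feedback genes AXIN2 and NKD1 rose, while the relay genes AXIN1 and CTNNB1 passed downward by little. AXIN2 (ENSG00000168646, hg19 chromosome 17, 63524681 to 63557765, minus strand), a scaffold of the destruction complex and a widely used readout of beta-catenin activity, had 10.0, 12.7 and 13.6 CPM in the siRPS19 libraries, against 3.21, 5.57 and 5.72 CPM in the siOTP libraries. It rose 2.51-fold, with groups that did not overlap (log2 fold change 1.33 ± 0.20 SE, adjusted p = 0.000126). NKD1 (ENSG00000140807, hg19 chromosome 16, 50582241 to 50670647, plus strand), an inhibitor that binds Dishevelled, had 68, 87 and 129 counts in siRPS19, against 19, 10 and 16 in siOTP, or 2.62, 3.77 and 5.34 CPM in siRPS19, against 0.911, 0.506 and 0.825 CPM in siOTP. The rise was 5.16-fold (log2 fold change 2.37 ± 0.31 SE, adjusted p = 5.35e-06), and NKD1 overlaps annotated genes on the other strand. With 10 counts in siOTP replicate 2, NKD1 passed the filter on low counts only through the siRPS19 libraries, so its p-value is not separate support. Among the siRPS19 libraries, replicate 3 had the highest value of both NKD1 and AXIN2. AXIN1 had 49.9, 54.7 and 50.9 CPM in the siRPS19 libraries, against 59.4, 55.8 and 63.9 CPM in the siOTP libraries (log2 fold change -0.21 ± 0.05 SE, adjusted p = 0.00178). CTNNB1, beta-catenin itself, had 300.3, 292 and 297 CPM in the siRPS19 libraries, against 329.9, 332 and 321 CPM in the siOTP libraries (log2 fold change -0.14 ± 0.04 SE, adjusted p = 0.00137). With library totals both signs turned, to 0.08 for AXIN1 (adjusted p = 0.191) and 0.14 for CTNNB1 (adjusted p = 0.00321), so the direction of AXIN1 and CTNNB1 depends on the scaling. AXIN2 and NKD1 passed upward under all 3 other scalings.

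**Figure D4:**
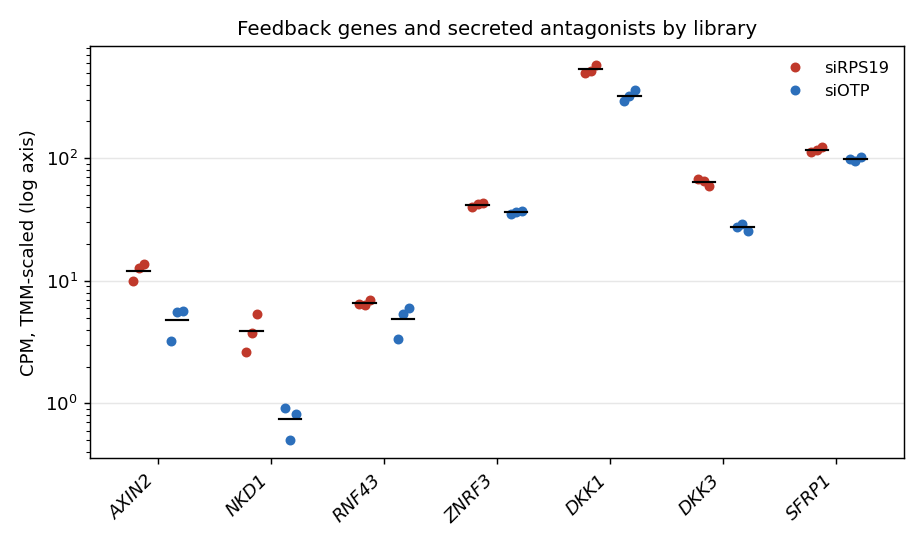
Level of 4 feedback genes and 3 secreted antagonists in each library (TMM-scaled CPM, log axis), with the 3 siRPS19 libraries on the left of each gene, the 3 siOTP libraries on its right and lines for the group means. The siRPS19 points lie above the siOTP points in all 7 genes, narrowly in RNF43.

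Of the nuclear factors, TCF7L2 fell and TCF7 rose. TCF7L2 had 26.7, 27.1 and 26.1 CPM in the siRPS19 libraries, against 37.4, 37.0 and 38.4 CPM in the siOTP libraries (log2 fold change -0.50 ± 0.05 SE, adjusted p = 5.22e-08). TCF7 had 18.4, 17.3 and 19.8 CPM in the siRPS19 libraries, against 15.0, 15.0 and 14.7 CPM in the siOTP libraries (log2 fold change 0.31 ± 0.07 SE, adjusted p = 0.000748). Per length TCF7L2 remained above TCF7 in every library, at 5.28 ± 0.103 RPKM in siRPS19, against 7.44 ± 0.138 RPKM in siOTP (SD of 3 libraries), against 1.84 ± 0.123 RPKM in siRPS19, against 1.48 ± 0.0210 RPKM in siOTP (SD of 3 libraries) for TCF7. LEF1 had 1 count in 1 siRPS19 library. Both TCF genes overlap annotated genes on the other strand, and 16 of the 32 tested members do (also CTNNB1, FZD3, FZD4, FZD6, LGR4, RNF43, SFRP1, WNT2B, WNT5B, WNT11 and ZNRF3, beside LRP6, ROR1 and NKD1 above).

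**Figure D5:**
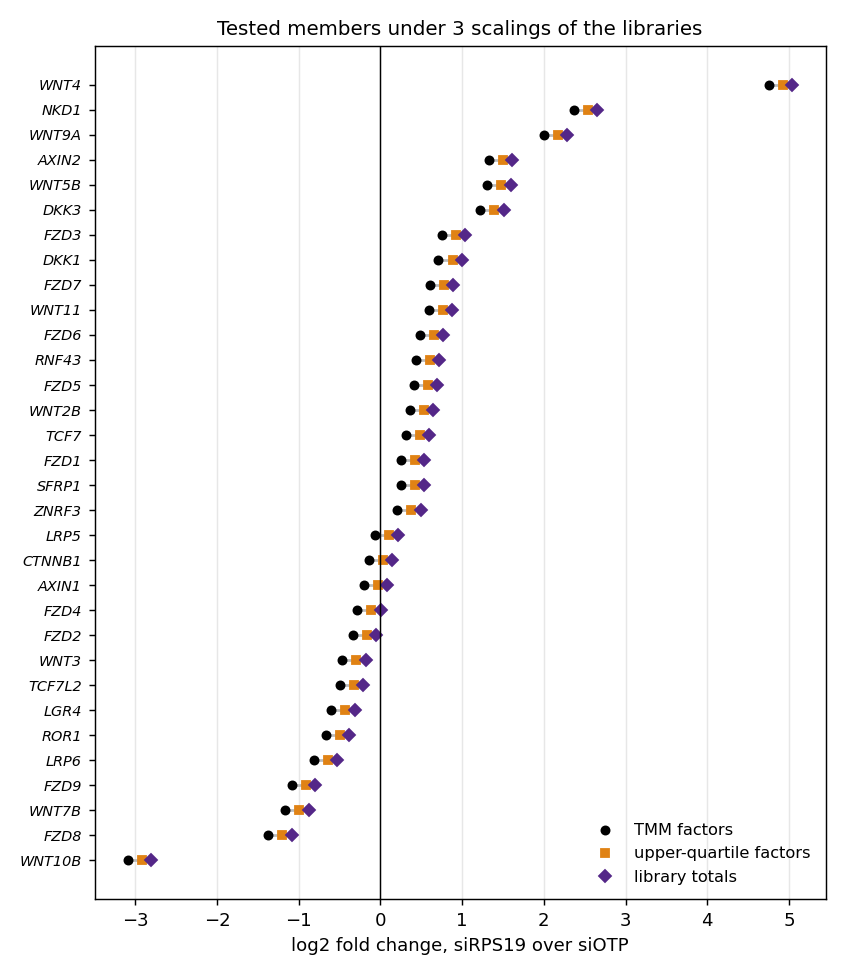
Log2 fold change of siRPS19 over siOTP for the 32 tested members with TMM factors, upper-quartile factors and library totals. The points of a gene move to the right of its TMM point, by a median over all genes of 0.17 for upper-quartile factors and of 0.29 for library totals. Library totals carry LRP5, CTNNB1, AXIN1 and FZD4 across 0 and leave the other 28 on their side.

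Another 102 genes of the pathway, listed by role, gave 40 higher and 27 lower among 85 tested, or 47.1% and 31.8% against 39.5% and 38.9% of all genes. The genes for making and shaping the ligand signal mostly rose, 4 of 5 tested. PORCN, the acyltransferase that adds the lipid to Wnt proteins, had 74.4, 75.8 and 73.6 CPM in the siRPS19 libraries, against 10.5, 10.5 and 10.9 CPM in the siOTP libraries. The rise was 7.02-fold (log2 fold change 2.81 ± 0.06 SE, adjusted p = 4.78e-20). SULF2, a heparan sulfate 6-O-endosulfatase, had 617, 639 and 649 CPM in the siRPS19 libraries, against 20.6, 23.1 and 21.8 CPM in the siOTP libraries. SULF2 was 29.1-fold higher (log2 fold change 4.86 ± 0.05 SE, adjusted p = 8.37e-24) and overlaps NCOA3 and another gene on the other strand. WLS, the carrier of Wnt proteins to the cell surface, rose 1.52-fold, with 10.4 ± 0.705 CPM in siRPS19, against 6.80 ± 0.561 CPM in siOTP (SD of 3 libraries). TIKI1 (TRABD2A), a protease that cuts Wnt proteins, fell 1.78-fold, with 5.25 ± 0.807 CPM in siRPS19, against 9.39 ± 1.36 CPM in siOTP (SD of 3 libraries).

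Among 6 tested antagonists outside the DKK genes and SFRP1, 4 rose and 2 fell (66.7% and 33.3%, against 39.5% and 38.9% of all genes). FRZB among the rises and SFRP5 among the falls passed the filter on low counts only through the group where each is high. The filter therefore favoured these calls. SFRP4 rose 3.99-fold, with 91.8 ± 3.73 CPM in siRPS19, against 23.0 ± 2.15 CPM in siOTP (SD of 3 libraries), and KREMEN2 and KREMEN1, receptors of DKK1, rose 2.63-fold and 1.49-fold. IGFBP4 fell 1.44-fold. Of the 3 tested R-spondin genes and LGR6, RSPO3 fell 1.62-fold, with 163 ± 11.0 CPM in siRPS19, against 264 ± 6.07 CPM in siOTP (SD of 3 libraries). Of 10 genes of alternative receptors and planar polarity, 6 rose and 3 fell (60% and 30%, against 39.5% and 38.9% of all genes). Library totals gave 7 higher and 2 lower, against 9114 and 4734 of all 17171 genes. VANGL2 and VANGL1, paralogous membrane proteins of planar polarity, went opposite ways. VANGL2 had 86.4, 88.6 and 89.4 CPM in the siRPS19 libraries, against 8.44, 7.70 and 7.32 CPM in the siOTP libraries (log2 fold change 3.49 ± 0.06 SE, adjusted p = 4.67e-21). VANGL1 had 20.1, 20.2 and 21.2 CPM in the siRPS19 libraries, against 69.3, 68.9 and 68.7 CPM in the siOTP libraries (log2 fold change -1.75 ± 0.05 SE, adjusted p = 1.91e-17). PRICKLE2 and DAAM1 rose 2.16-fold and 2.04-fold.

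In the cytoplasm, 11 of 20 genes of the destruction complex and Dishevelled rose and 5 fell (55% and 25%, against 39.5% and 38.9% of all genes). Library totals gave 15 higher and 3 lower, against 9114 higher and 4734 lower of all 17171 genes. CSNK1G1 rose 2.64-fold and APC2 2.34-fold, while DVL1, a Dishevelled gene, fell 2.36-fold and the kinase gene GSK3A 1.89-fold. Their paralogs DVL3 and GSK3B, named after their values were seen, rose 1.67-fold and 1.37-fold, and DVL2 did not pass. Of 21 nuclear cofactors, 6 rose and 9 fell (28.6% and 42.9%). TBL1X, a corepressor exchange factor, fell 3.48-fold, with 26.0 ± 0.664 CPM in siRPS19, against 90.6 ± 2.83 CPM in siOTP (SD of 3 libraries). CTNNBIP1, an inhibitor that binds beta-catenin, rose 2.71-fold, with 23.2 ± 1.24 CPM in siRPS19, against 8.53 ± 1.05 CPM in siOTP (SD of 3 libraries), and the corepressor genes TLE4 and TLE2 rose 2.08-fold and 1.91-fold. Their paralogs TLE1 and TLE3, named after their values were seen, fell 1.27-fold and 1.22-fold, and AES did not pass. The calls of TLE1 and TLE3 were lost with library totals. With library totals, which moved all genes upward, the counts of nuclear cofactors turned to 13 higher and 4 lower.

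Of 21 tested genes known as beta-catenin targets in other cells, 9 rose, 6 fell and 6 did not pass. The shares of 42.9% higher and 28.6% lower stood against 39.5% and 38.9% of all genes. BIRC5, an inhibitor of apoptosis that peaks in dividing cells, fell 71.5-fold, with 0.945 ± 0.258 CPM in siRPS19, against 67.8 ± 2.16 CPM in siOTP (SD of 3 libraries). MYC fell 2.13-fold, with 96.6 ± 4.22 CPM in siRPS19, against 206 ± 6.24 CPM in siOTP (SD of 3 libraries). CCND1, cyclin D1, fell 1.31-fold, with 351 ± 24.2 CPM in siRPS19, against 459 ± 9.83 CPM in siOTP (SD of 3 libraries), and that call was lost with library totals (log2 fold change -0.10, adjusted p = 0.0615). SOX4 rose 3.55-fold, with 285 ± 8.79 CPM in siRPS19, against 80.3 ± 2.23 CPM in siOTP (SD of 3 libraries), and MMP7, a matrix metalloproteinase, rose 2.6-fold, with 22.6 ± 2.30 CPM in siRPS19, against 8.71 ± 0.157 CPM in siOTP (SD of 3 libraries). With library totals the targets gave 13 higher and 4 lower of 21, while all 17171 genes gave 9114 higher and 4734 lower.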

How the data were processed

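RNA-seq of 6 A549 libraries was analysed. Per the submitters' processing notes, TopHat2 (2.0.8b), HTSeq, DESeq and R (3.0.2) were used with build hg19. The authors deposited raw read counts per Ensembl gene for each library. A second deposited table gives RPKM once per group, from the mean count plus 1, which held for 100% of 62729 genes within a relative tolerance of 0.001, and supplied symbols, coordinates and transcript lengths. The strand and overlap settings of the counting were not given in the sources used here. Count columns without a sample name, 6 in all, were left aside. Entries that name no gene were left out (ambiguous reads 7.50% to 8.24% of entries).

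Genes were filtered with filterByExpr (minimum count 10, minimum total 15), scaled with TMM and tested with edgeR 4.0.16 (robust glmQLFit, glmQLFTest, R 4.3.3), with Benjamini-Hochberg adjustment over 17171 genes. Each fold change's SE was taken as its size over the root of its F statistic. Alternatives were other scalings and filters, DESeq2 1.42.0, limma-voom (limma 3.58.1), a replicate block and leaving out libraries. The fits were tested on simulated data. Replicate pairs differed beyond sampling noise (chi-square per degree of freedom 4.40 to 16.6). The sample descriptions give same-numbered libraries of both groups the same date, which was taken to pair them. Their deviations from the group means correlated across genes at 0.055, -0.095 and 0.045.

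The members and lists were chosen with earlier results of these data known. Values are given per library for members at a mean of at least 1 CPM, and the lists are shown by MYC, CCND1 and up to 4 genes per list with the largest change, among those past the test at a mean of at least 5 CPM. Some paralogs that went another way were added after their values were seen. Of 120 list entries, 3 were matched through synonyms.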

Additional observations from a re-analysis of the deposited data

How the results depend on the processing

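Of 542 fold changes of tested members under 17 alternatives, 501 kept both their direction and their side of the threshold, 28 lost the call, 7 gained it and 6 turned sign. The turned signs came from scaling: with library totals LRP5 stood at 0.22, CTNNB1 at 0.14, AXIN1 at 0.081 and FZD4 at 0.001 on the log2 scale, and with upper-quartile factors LRP5 at 0.10 and CTNNB1 at 0.028. Library totals moved the members to 19 higher and 8 lower, the other pathway genes to 56 higher and 17 lower, and all genes to 9114 higher and 4734 lower (65.8% of calls higher, against 50.4% with TMM). Upper-quartile factors gave 59.8%. With same-numbered libraries as a replicate block, 16 members were higher and 12 lower, FZD4 alone losing its call, and the other pathway genes gave 42 higher and 28 lower. It changed no other member's call. Leaving out a library or pair gave 15 to 16 higher and 11 to 13 lower members, an RPS19 log2 fold change of -5.21 to -5.05, an LRP6 to LRP5 difference of -0.78 to -0.70 and a ZNRF3 to RNF43 difference of -0.42 to -0.03. Depth limits the 16 untested members, of which 5 had no count and 11 had 1 to 46 counts over all 6 libraries.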

Other observations

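Some scarcer genes of the pathway lists, named after their values were seen, also stood apart between the groups. NOTUM, a secreted enzyme that removes the lipid from Wnt proteins and is itself a beta-catenin target, had 3.38, 4.29 and 4.97 CPM in the siRPS19 libraries, against 0.959, 0.709 and 0.773 CPM in the siOTP libraries (log2 fold change 2.36 ± 0.22 SE, adjusted p = 3.89e-09). LGR6, a relative of LGR4, had 214 counts over the siRPS19 libraries and 17 over the siOTP libraries (log2 fold change 3.34 ± 0.27 SE, adjusted p = 4.8e-10). EPHB3, a receptor tyrosine kinase, had 138 counts over the siRPS19 libraries and 21 over the siOTP libraries (log2 fold change 2.41 ± 0.32 SE, adjusted p = 9.11e-07). LGR6 and EPHB3 passed the filter on low counts through the siRPS19 libraries, where they are high, so their p-values are not separate support. Among the Frizzled-related proteins, SFRP5 had 1 count over the siRPS19 libraries and 78 over the siOTP libraries, and FRZB had 42 counts over the siRPS19 libraries and none over the siOTP libraries. SP5, a transcription factor known as a beta-catenin target, had 20 counts over the siRPS19 libraries and 2 over the siOTP libraries and was not tested.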
